A study of Mus musculus with 26 samples.

Results

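The genes described here are 45 interferon response genes of mouse liver, chosen as the rows of the annotated count table whose symbol is on a list of interferon-induced genes. All 45 were found among the 54532 genes of the table, and all 45 were among the 14415 genes that passed the filter on low counts. Liver RNA came from 26 C57BL/6 mice given benoxacor, a safener that protects crop plants from herbicides, by mouth at 0 (5 mice), 0.5 (5 mice), 5 (8 mice) or 50 mg/kg (8 mice). Mice were dosed on 3 days in a row, and the livers were collected 24 hours past the final gavage. The 0 mg/kg mice were the controls, and all mice were acclimatised between 4 and 8 weeks with bedding mixed to make their gut microbes alike. The mouse numbers form 2 runs, 601 to 616 with 4, 3, 4 and 4 mice at the rising doses, and 619 to 632 with 1, 2, 4 and 4. What sets the runs apart is not in the labels, and within a run the numbers follow the dose, so dose and number order cannot be told apart.

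Interferons are cytokines released on infection or tissue damage. Type I interferons bind a receptor whose kinases activate transcription factors that act with IRF9 on the interferon-stimulated response element (ISRE), while interferon gamma acts on genes with the gamma-activated site (GAS). The genes so induced encode sensors of viral RNA, enzymes that degrade it, GTPases that attack the vacuoles of intracellular parasites and parts of the antigen processing machinery. Hepatocytes, Kupffer cells and other cells of the liver all respond to interferon, so in whole liver a lower number of cells of a type and less RNA per cell cannot be told apart.

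The promoters of the list held the ISRE core more often than those of all genes. RefSeq windows (GRCm38.p6) of 250 bases before to 50 bases after a transcript start were present for 36 of the 45 members. The ISRE core, searched on both strands as GAAA, any 2 bases and GAAA again, was found in 22 of these 36 members (61.1%) and in 3.99% of all 27025 genes with a window. The GAS core TTCNNNGAA, whose reverse complement is itself, was found in 11 of 36 (30.6%) and in 9.55% of all genes. By role, the ISRE core was in 8 of 9 windowed GTPases, 10 of 17 antiviral effectors, 1 of 4 transcription factors and 0 of 3 antigen processing genes. The sequences that follow run 5′ to 3′ on the gene's own strand with ISRE cores in capitals, and are shown because these genes carry the results or, for Isg15 and Ifi47, the extremes of 3 cores and none. They are the 250 bases before the start for Isg15 (chr4:156200819-156201068, minus strand), Ifit3 (chr19:34583279-34583528, plus), Igtp (chr11:58199306-58199555, plus), Stat2 (chr10:128270248-128270497, plus) and Ifi47 (chr11:49076337-49076586, plus). For Irgm1 the 30 bases around its 2 overlapping cores are given (chr11:48871428-48871457, minus), a window that annotated exons cover.
Isg15: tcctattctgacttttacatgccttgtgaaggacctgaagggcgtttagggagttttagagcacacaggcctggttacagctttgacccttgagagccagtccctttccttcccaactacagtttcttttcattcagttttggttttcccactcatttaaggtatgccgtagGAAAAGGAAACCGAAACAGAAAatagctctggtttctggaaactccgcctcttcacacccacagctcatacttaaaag
Ifit3: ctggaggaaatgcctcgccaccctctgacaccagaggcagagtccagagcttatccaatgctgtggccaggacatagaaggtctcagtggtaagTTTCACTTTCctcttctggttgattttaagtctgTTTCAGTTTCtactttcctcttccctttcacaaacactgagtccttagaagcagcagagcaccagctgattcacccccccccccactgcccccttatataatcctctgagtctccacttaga
Igtp: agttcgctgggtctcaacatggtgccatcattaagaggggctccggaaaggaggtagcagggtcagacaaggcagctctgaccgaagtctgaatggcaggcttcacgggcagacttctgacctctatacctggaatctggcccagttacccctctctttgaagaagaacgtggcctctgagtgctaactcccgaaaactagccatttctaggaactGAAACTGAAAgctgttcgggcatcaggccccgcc
Stat2: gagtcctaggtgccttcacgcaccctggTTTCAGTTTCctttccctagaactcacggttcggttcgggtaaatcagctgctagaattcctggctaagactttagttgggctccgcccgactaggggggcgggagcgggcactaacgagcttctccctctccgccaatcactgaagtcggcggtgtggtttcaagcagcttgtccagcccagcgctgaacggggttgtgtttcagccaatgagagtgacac
Ifi47: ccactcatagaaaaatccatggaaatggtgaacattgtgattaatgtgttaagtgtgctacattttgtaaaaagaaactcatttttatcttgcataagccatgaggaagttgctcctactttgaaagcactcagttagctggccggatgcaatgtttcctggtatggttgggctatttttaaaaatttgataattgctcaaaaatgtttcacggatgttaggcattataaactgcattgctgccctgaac
Irgm1: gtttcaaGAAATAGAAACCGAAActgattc
In Isg15 the 3 cores overlap in 1 run between 78 and 57 bases before the start, and in Ifit3 the pair lies on the opposite strand at 156 to 147 and 122 to 113 bases before it. Igtp also holds a GAS core 45 to 37 bases before its start. A match here describes letters, not bound protein, and the windows of Irf7, Irf9 and Tap1, like that of Ifi47, held no match to the ISRE core.

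Libraries held 5433074 to 9088626 reads assigned to genes. Libraries that stand apart are those of mice 605 and 606 (0.5 mg/kg replicates 1 and 2), where the acute phase gene Saa1, whose product the liver secretes in inflammation, was at 2311 and 3233 CPM (reads of a gene relative to the reads of its library, whose size is adjusted by TMM) against at most 655 CPM in the other 24 mice. Another is that of mouse 628 (5 mg/kg replicate 8), where 5 genes of steroid-producing cells summed to 3514 CPM, against 2.24 to 18.4 CPM elsewhere. Its 5 B cell markers summed to 99.6 CPM, against at most 11.4 CPM in any other mouse, and its stellate cell and fibroblast markers to 462 CPM, the highest of the study. Mouse 626 (5 mg/kg replicate 6) stood apart within its dose for several members, as given beside them. The 6 hepatocyte markers, which define the labelled tissue, were detected in every library and summed to 44973 to 131304 CPM.

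Levels of the members per kilobase of exon ranged from 0.125 to 120.4 CPM per kb. Bst2, which tethers budding virus to the cell surface, was highest at 120.4 CPM per kb, followed by the GTPase Iigp1 at 88.0 and Ifi27, a mitochondrial interferon-induced protein, at 53.1. Stat2 came next at 21.1 CPM per kb. Cxcl10, a chemokine that attracts T cells, stood at 1.15 CPM per kb, Oas1g at 0.570, Ifi44 at 0.495 and Oas3 at 0.125. In raw terms Iigp1 had 96920 reads over the 26 libraries, Oas1g had 253 and Oas3 had 163, so single values of the last pair rest on few reads. Some members have near copies or exons that overlap those of another gene. They may share reads, which was not measured, and are uncertain as single genes, since the counting strand is not given in the sources used here. These include Ifit3 with Ifit3b, Tgtp1 with Tgtp2, Oas1a with Oas1g, Igtp with Irgm2 (162 shared exon bases) and Psmb9 with Tap1 (212 bases, opposite strands).

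**Figure D1:**
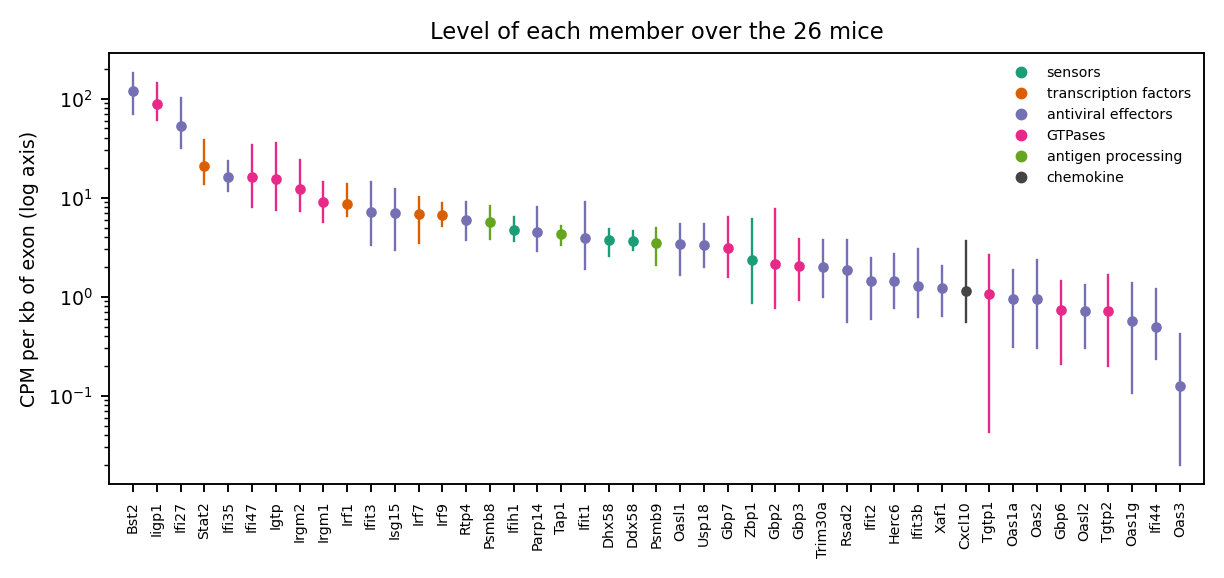
Mean level of each of the 45 members over the 26 mice, in CPM per kb of exon on a log axis (points), with the lowest to highest mouse above 0 (lines), coloured by role. Bst2, Iigp1 and Ifi27 lead, and Oas3 is last.

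No member passed an adjusted p of 0.05 in any dose comparison, in edgeR's quasi-likelihood fit, adjusted by Benjamini-Hochberg over 14415 genes. At 0.5 against 0 mg/kg, 37 of 45 members had positive fold changes (50.8% of all genes did), with a median log2 fold change of 0.22 against 0.00 over all genes. Of the members, 0 were called (0% of all genes were), and 8 had an unadjusted p under 0.05 (6.99% of all genes), of which 8 were higher (3.79%) and 0 lower (3.20%). At 5 against 0 mg/kg, 31 of 45 were positive (51.9% of all genes) with a median of 0.09, and 0 were called (0% of all genes). At an unadjusted p under 0.05 there were 4 (6.18% of all genes), 2 higher (2.73%) and 2 lower (3.45%). At 50 against 0 mg/kg, 33 of 45 were positive (51.1%) with a median of 0.14, 0 were called (0.00694% of all genes, 1 gene) and 4 had an unadjusted p under 0.05 (5.11%), of which 4 were higher (2.54%) and 0 lower (2.57%). DESeq2 and limma-voom also called 0 members in these 3 comparisons, with 8 and 6 members at an unadjusted p under 0.05 for the lowest dose, 5 and 4 for the middle dose and 3 and 3 for the highest. The shares of all genes at that level were 7.67% and 6.94%, 6.81% and 6.22%, and 5.53% and 5.18%, so the count at the highest dose was near the background. The 3 comparisons share the same 5 controls. The smallest adjusted p of a member was 0.492, 0.780 and 0.883 at the rising doses in edgeR. For 0 members did the values of the dosed and control mice lie apart without overlap in any of these comparisons, which happened upward for 0.645% and downward for 0.756% of all genes at 0.5 mg/kg, for 0.0832% and 0.139% at 5 mg/kg, and for 0.118% and 0.0486% at 50 mg/kg.

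The shift at 0.5 mg/kg was not seen without mice 605 and 606. When both were left out, 22 of 45 members were positive (46.3% of 14804 genes tested), the median was -0.04, and 0 had an unadjusted p under 0.05 (11.0% of all genes). Of the 37 members positive with all mice, 21 stayed positive and 16 turned negative. Without mouse 605 alone the median was 0.15. At 5 and 50 mg/kg, where the 2 mice enter only through the shared spread and the run term, leaving them out gave 31 of 45 positive (52.5% of all genes; median 0.06) and 29 of 45 (48.8%; median 0.12). Within the run from 601 mice 605 and 606 are 2 of the 3 mice at 0.5 mg/kg. There 36 of 45 members were positive (47.0% of all genes) with a median of 0.43, and 22 had an unadjusted p under 0.05 (16.2%). Within the run from 619, with 1 control, 28 of 45 were positive (49.3% of all genes) with a median of 0.07. At 5 mg/kg the run from 601 gave 19 of 45 positive (50.6% of all genes; median -0.01). The other run gave 32 of 45 (median 0.31), where 56.4% of all genes were positive with a median of 0.10. This difference between runs was not tested. At 50 mg/kg the runs gave 26 of 45 (50.0% of all genes; median 0.10) and 31 of 45 (53.5%; median 0.19).

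**Figure D2:**
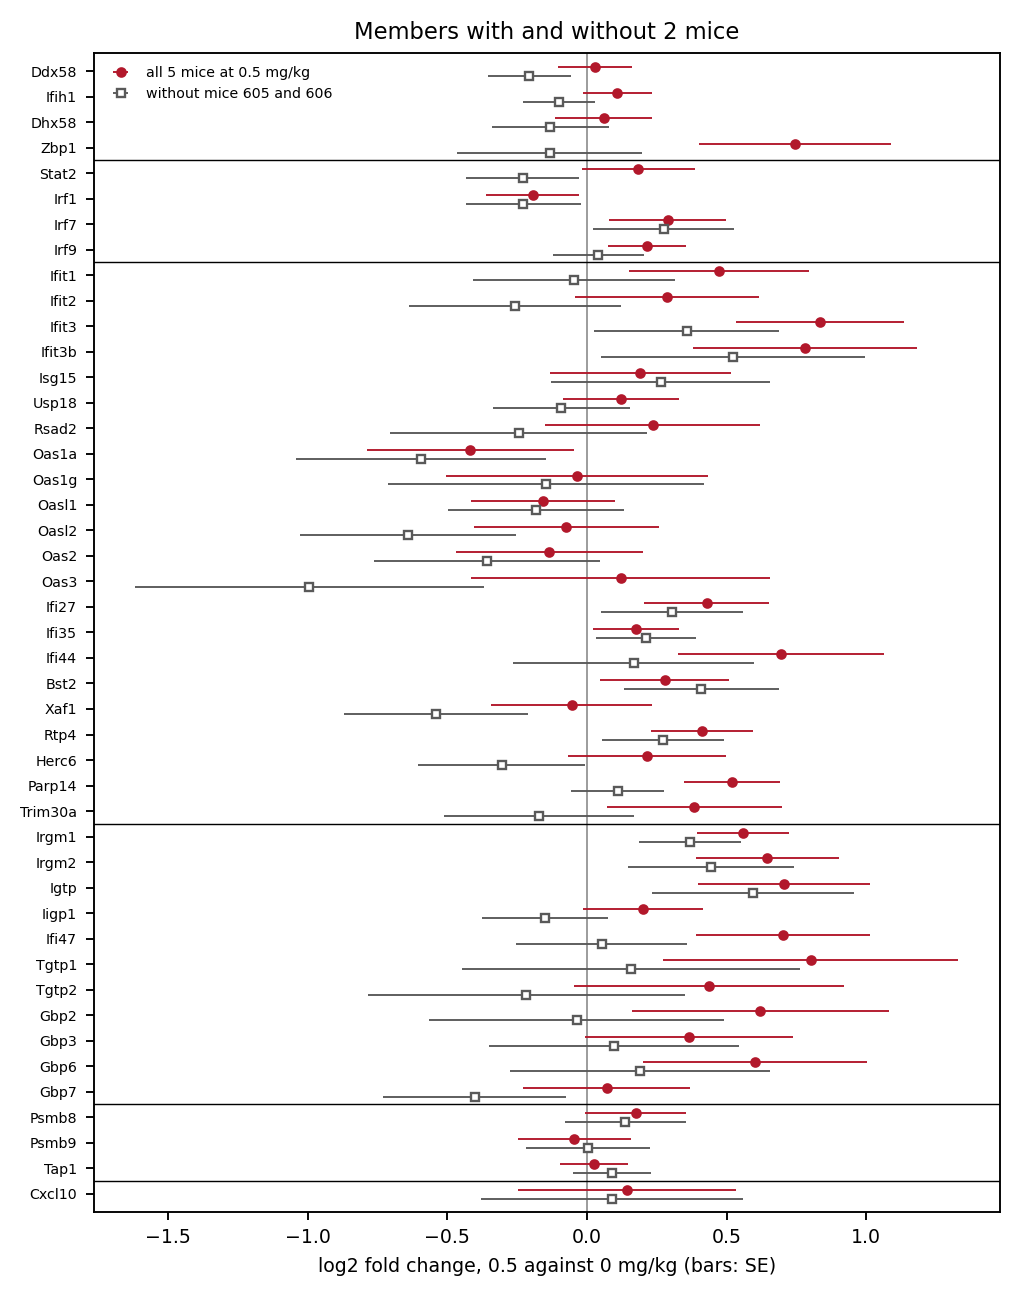
Log2 fold change of each member at 0.5 against 0 mg/kg with its SE, with all 5 mice at 0.5 mg/kg (filled) and without mice 605 and 606 (open), grouped by role. The 11 GTPases all lie above 0 with all mice, and 7 of 11 do without the pair.

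A per-mouse summary, the median over the 45 members of log2 CPM minus each gene's median over the 26 mice, showed the same spread. At 0 mg/kg it was 0.04, -0.01, -0.22, 0.00 and -0.12 for mice 601, 602, 603, 604 and 619. At 0.5 mg/kg it was 0.44 and 0.64 for mice 605 and 606, 0.14 and 0.13 for mice 607 and 623, and -0.39 for mouse 624. The 0.5 mg/kg group thus held the 2 highest mice of the study and the lowest one. At 5 mg/kg the lowest, median and highest mice were at -0.17, -0.03 and 0.32, and at 50 mg/kg they were at -0.38, 0.07 and 0.20. Means were -0.06 ± 0.11 (SD, n = 5), 0.19 ± 0.39 (n = 5), -0.02 ± 0.15 (n = 8) and 0.04 ± 0.19 (n = 8) at the rising doses, and -0.04 ± 0.30 (n = 3) at 0.5 mg/kg without mice 605 and 606. The 0.5 mg/kg mean lay above the control mean by less than the SD within the 0.5 mg/kg group but by more than the SDs of the other groups, and the groups overlapped. Means in the run from 601 were -0.05, 0.41, -0.10 and 0.03, and those in the other run were -0.12 (1 mouse), -0.13, 0.06 and 0.04.

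**Figure D3:**
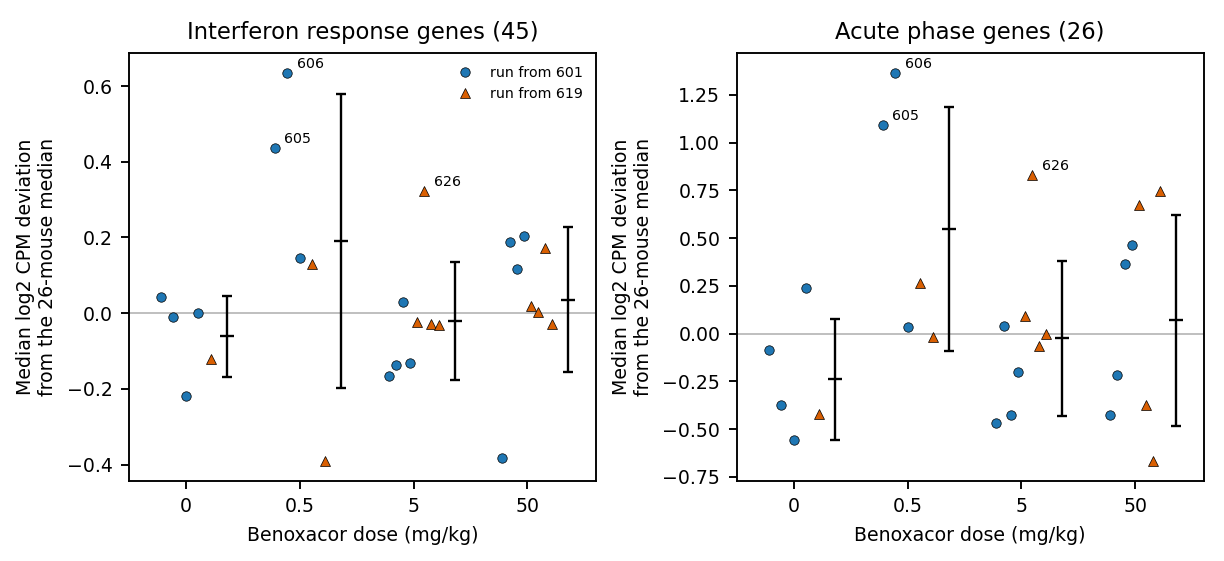
Median deviation in log2 CPM from the 26-mouse median, per mouse, for the 45 interferon response genes (left) and 26 acute phase genes (right), by dose in mg/kg. Circles are mice of the run from 601, triangles of the run from 619, and black bars the mean ± SD of a dose. Mice 605, 606 and 626 are labelled and lie at 0.44, 0.64 and 0.32 on the left and at 1.09, 1.37 and 0.83 on the right.

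Of the sensors, Zbp1, which senses Z-form nucleic acid and can trigger necroptosis, had values at 0 mg/kg of 7.28, 6.95, 7.96, 5.36 and 7.10 CPM. At 0.5 mg/kg they were 18.6, 21.4, 7.74, 6.44 and 4.21 CPM, so that mice 605 and 606 lay above all others and the other 3 among or below the controls. The lowest, median and highest were 3.06, 6.47 and 11.4 CPM at 5 mg/kg. At 50 mg/kg they were 5.11, 8.78 and 12.3 CPM. Its log2 fold change at 0.5 mg/kg was 0.75 ± 0.34 (SE; edgeR adjusted p = 0.669), and -0.13 without the pair. Ifih1 (MDA5), a sensor of long double-stranded RNA and the sensor with most reads, ranged from 34.2 to 44.0 CPM in controls and was at 52.0, 45.1, 43.6, 32.1 and 29.9 CPM at 0.5 mg/kg. Its values were narrow at the higher doses, from 33.2 to 38.4 CPM at 5 mg/kg and from 36.9 to 45.3 CPM at 50 mg/kg. All 4 sensors, with Ddx58 (RIG-I) and Dhx58, were positive at 0.5 mg/kg (median 0.08), and 0 of 4 were without the pair.

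Among the transcription factors, Stat2 was at 148, 118, 107, 114 and 153 CPM in controls. At 0.5 mg/kg it was at 224 and 181 CPM in mice 605 and 606, 147 CPM in mouse 607, and 81.3 and 92.8 CPM in the 2 mice of the run from 619. Those last 2 values lay below every control and the first 2 above every control, and the group mean of 145 ± 60.0 CPM (SD, n = 5) differed from that of controls (128 ± 21.3, n = 5) by less than this spread. Stat2 ranged from 84.6 to 165 CPM at 5 mg/kg and from 107 to 151 CPM at 50 mg/kg. Irf9, a DNA-binding factor of the type I interferon response, had 47.9 and 45.4 CPM in mice 605 and 606 and at most 44.8 CPM in any other mouse. Its means at the rising doses were 34.6 ± 3.73, 39.98 ± 7.85, 37.8 ± 5.08 and 32.8 ± 4.53 CPM. Irf1, a factor induced mainly by interferon gamma, showed another order. Its highest value of all 26 was 54.5 CPM in mouse 626 (5 mg/kg replicate 6), while mice 605 and 606 had 35.7 and 28.7 CPM and controls 32.7 to 40.2 CPM.

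The antiviral effectors were the largest group, with 16 of 22 positive at 0.5 mg/kg (median 0.23), 15 of 22 at 5 mg/kg (0.12) and 15 of 22 at 50 mg/kg (0.13). Ifit3, which takes part in binding foreign RNA with Ifit1, was at 12.5, 11.2, 5.76, 7.11 and 6.95 CPM in controls and at 18.3, 25.2, 12.6, 12.4 and 8.19 CPM at 0.5 mg/kg. The lowest, median and highest were 9.07, 11.1 and 25.0 CPM at 5 mg/kg, the last in mouse 626, and at 50 mg/kg 8.29, 13.5 and 19.3 CPM. The dosed medians lay above the control median of 7.11 CPM, with overlap at each dose. The log2 fold changes were 0.83 ± 0.30 (SE) at 0.5, 0.58 ± 0.28 at 5 and 0.70 ± 0.28 at 50 mg/kg, with edgeR adjusted p of 0.547, 0.780 and 0.883, and 0.36 at 0.5 mg/kg without mice 605 and 606.

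Parp14, an ADP-ribosyltransferase, was at 34.6, 41.8, 35.97, 33.1 and 32.4 CPM in controls and at 66.7, 74.2, 42.5, 39.6 and 26.8 CPM at 0.5 mg/kg. Mice 605 and 606 again lay above every other mouse, the next being at 55.0 CPM at 50 mg/kg. The mice at 5 mg/kg spanned 34.9 to 45.7 CPM with a median of 38.9 CPM, and those at 50 mg/kg 31.3 to 55.0 CPM with a median of 41.3 CPM. Its log2 fold change at 0.5 mg/kg, 0.52 ± 0.17 (edgeR adjusted p = 0.499), was 0.11 without the pair and 0.06 in the run from 619. Rtp4, a Golgi chaperone with antiviral action, was at 14.8, 12.2, 7.96, 9.66 and 8.57 CPM in controls and between 11.4 and 16.7 CPM at 0.5 mg/kg. Its log2 fold change was 0.41 ± 0.18 at 0.5 mg/kg (0.27 without the pair) and 0.41 ± 0.17 at 50 mg/kg, with edgeR adjusted p of 0.664 and 0.905. Bst2, the member of highest level, spread as widely in controls (63.7 to 143 CPM) as at 0.5 mg/kg (104 to 165 CPM) and 50 mg/kg (65.9 to 133 CPM), and mice 605 and 606 had 104 and 107 CPM.

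The oligoadenylate synthetases make the messenger that activates RNase L, an RNA-degrading enzyme. All 4 (Oas1a, Oas1g, Oas2 and Oas3) had negative log2 fold changes at 5 mg/kg (-1.07 to -0.18) and 50 mg/kg (-0.59 to -0.20). At these doses 51.9% and 51.1% of all genes were positive. The 4 were not a group set in advance. Oas1a, Oas1g and Oas3 rest on few reads, and Oas1a and Oas1g are near copies. Oas2 was at 8.26, 10.6, 3.02, 4.83 and 3.25 CPM in controls, so that 2 of the 5 controls stood at more than 8 CPM and the others below 5 CPM. Mice at 5 mg/kg had a lowest, median and highest of 1.36, 3.18 and 3.98 CPM, within or below the range of the 3 lower controls, and at 50 mg/kg 1.94, 3.55 and 5.10 CPM. Its log2 fold change was -0.83 ± 0.31 (SE; edgeR adjusted p = 0.780) at 5 mg/kg and -0.59 ± 0.32 (adjusted p = 0.977) at 50 mg/kg. Without 0 mg/kg replicate 2, the highest control, these were -0.56 and -0.33, and in the run from 619, whose 1 control had 3.25 CPM, they were -0.24 and 0.12. Oas1g, at 3.22, 1.74, 1.24, 2.41 and 0.443 CPM in controls, had a lowest, median and highest of 0.247, 0.719 and 1.28 CPM at 5 mg/kg and 0.619, 1.35 and 2.75 CPM at 50 mg/kg. For Oas1g the log2 fold change from 0 to 5 mg/kg was -1.07 ± 0.44 (edgeR adjusted p = 0.780), and 0.38 in the run from 619. From 5 to 50 mg/kg it was 0.87 ± 0.39 (edgeR adjusted p = 0.962). Oasl1, a related protein without synthetase activity, was at 7.10 to 14.0 CPM at 50 mg/kg and at 5.14 to 12.8 CPM at 5 mg/kg.

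All 11 interferon-inducible GTPases had positive fold changes at 0.5 mg/kg, with a median of 0.60, and 9 and 10 of 11 were positive at 5 (0.16) and 50 mg/kg (0.25). Without mice 605 and 606, 7 of 11 were positive at 0.5 mg/kg with a median of 0.10. Irgm1 (ENSMUSG00000046879, mm10 chromosome 11 from 48861968 to 48871683, minus strand), which regulates the other GTPases of its family and autophagy, was the member of smallest p. It was at 48.7, 39.5, 32.7, 48.3 and 43.3 CPM in controls and at 62.2, 83.8, 67.4, 54.5 and 43.9 CPM at 0.5 mg/kg, where 4 of 5 mice exceeded every control. Mice at 5 mg/kg had a lowest, median and highest of 39.7, 50.1 and 71.5 CPM, and at 50 mg/kg 44.3, 52.9 and 65.2 CPM. Its log2 fold changes were 0.56 ± 0.16 (95% interval 0.22 to 0.89, unadjusted p = 0.00199), 0.31 ± 0.15 and 0.37 ± 0.15, with edgeR adjusted p of 0.492, 0.780 and 0.883. The first of these was 0.37 without the pair, 0.72 in the run from 601 and 0.21 in the other run.

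Igtp and Irgm2 lie together on chromosome 11 and share exon bases, so their values may not be independent. Igtp was at 26.2, 15.1, 18.8, 20.5 and 31.8 CPM in controls and at 28.3, 51.6, 38.2, 35.9 and 28.9 CPM at 0.5 mg/kg. The lowest, median and highest were 19.0, 25.4 and 73.0 CPM at 5 mg/kg. For 50 mg/kg they were 21.0, 29.8 and 44.4 CPM. The value of 73.0 CPM belonged to mouse 626, and the next highest at that dose was 41.4 CPM. The log2 fold change of Igtp at 0.5 mg/kg was 0.71 ± 0.31 (edgeR adjusted p = 0.664), and 0.60 without mice 605 and 606. For Irgm2 it was 0.65 ± 0.26 at 0.5 mg/kg (adjusted p = 0.608; 0.45 without the pair; -0.05 in the run from 619) and 0.56 ± 0.24 at 5 mg/kg (adjusted p = 0.780; 0.39 without mouse 626). Ifi47, a GTPase of the same family whose promoter window showed no ISRE core, had 84.6 and 81.2 CPM in mice 605 and 606, 50.4 CPM in mouse 607 and 33.6 and 24.4 CPM in the run from 619, against controls of 21.3 to 53.5 CPM. Iigp1 ranged from 361 to 722 CPM in controls, where the 722 CPM was mouse 619, the 1 control of its run. It ranged from 364 to 770.1 CPM at 0.5 mg/kg, from 355 to 595 CPM at 5 mg/kg and from 443 to 836 CPM at 50 mg/kg.

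**Figure D4:**
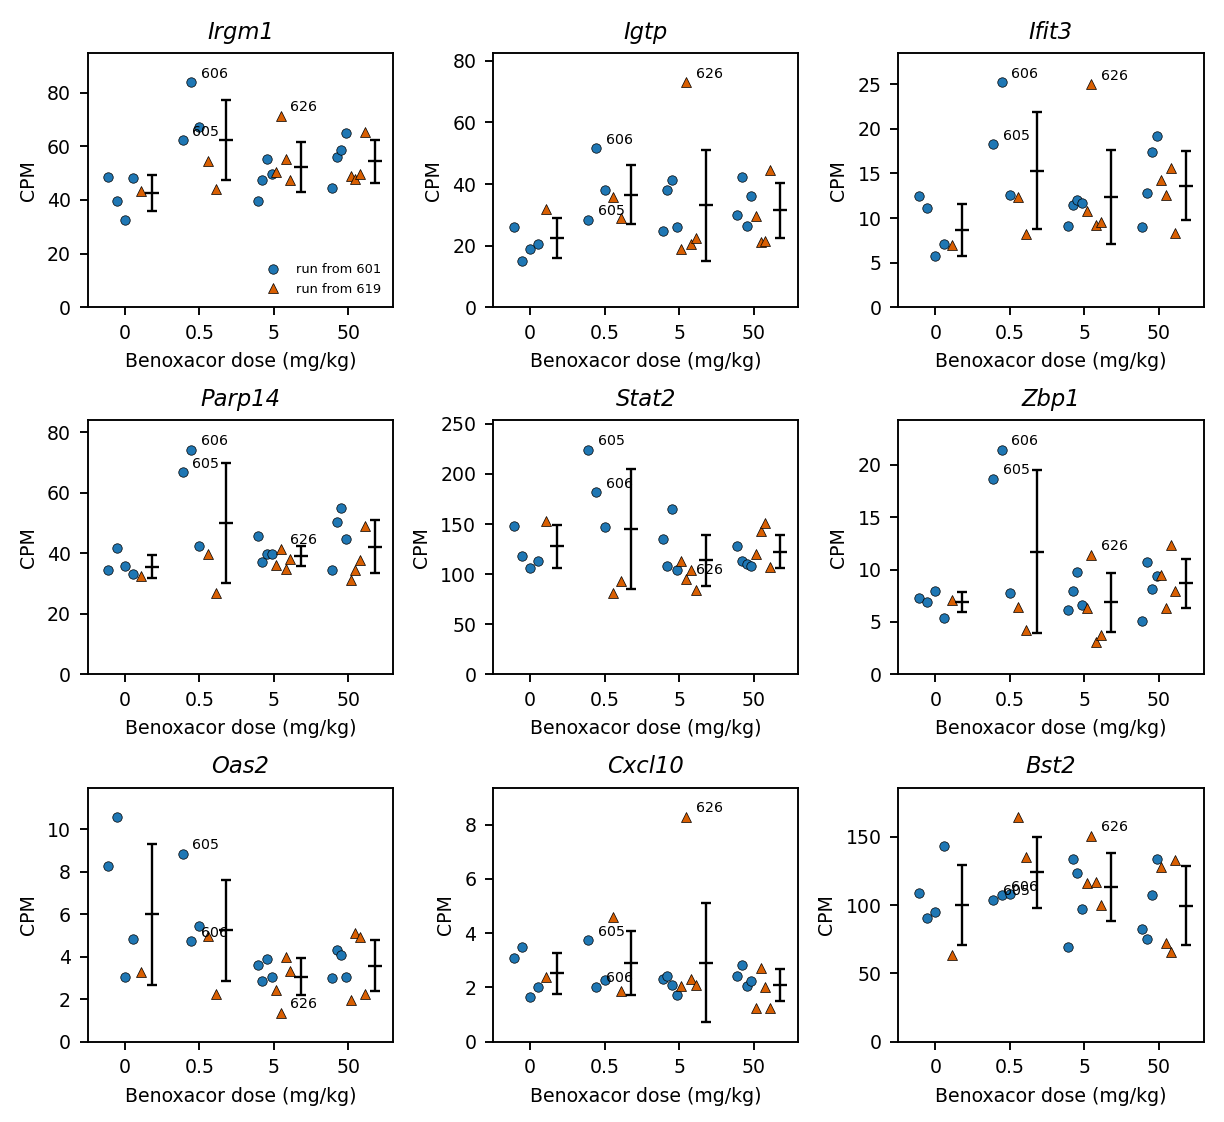
CPM of 9 members in each mouse by dose in mg/kg, with circles for the run from 601, triangles for the run from 619 and black bars for the mean ± SD of a dose. Mice 605 and 606 lie above all others for Parp14, Stat2 and Zbp1, and mouse 626 does for Igtp and Cxcl10.

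Tap1 was the steadiest member. This antigen processing gene, which encodes a subunit of the peptide transporter that loads MHC class I, had means of 22.9 ± 2.22, 23.6 ± 3.11, 23.3 ± 1.72 and 23.5 ± 3.42 CPM (SD; n = 5, 5, 8 and 8) at the rising doses, and the log2 fold changes of Tap1 were 0.02, -0.01 and 0.00. Together with the immunoproteasome subunits Psmb8 and Psmb9, 2 of 3 were positive at 0.5 mg/kg with a median of 0.02. Cxcl10 was at 1.65 to 3.48 CPM in controls, 1.87 to 4.58 CPM at 0.5 mg/kg and 1.24 to 2.82 CPM at 50 mg/kg. At 5 mg/kg mouse 626 had 8.29 CPM and the other 7 mice had 1.72 to 2.43 CPM.

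Mouse 626 was the highest of 26 mice for 10 of 45 (Irf1, Ifit1, Ifit3b, Isg15, Rsad2, Irgm2, Igtp, Gbp2, Gbp6 and Cxcl10), against 4.74% of all genes. It was the lowest for 3 (Oas1g, Oas2 and Herc6), which is near its share over all genes (6.22%). Mouse 605 was highest for 9 of 45, against 6.59% of all genes, among them Ifih1, Stat2, Irf9, Oas3 and Herc6. Mouse 606 was highest for 7 of 45, against 7.15% of all genes, among them Zbp1, Ifit2, Ifit3, Parp14 and Irgm1. By role, the median deviation of the GTPases was 0.63, 0.78 and 0.84 in mice 605, 606 and 626, but it was also 0.64 in mouse 614 (50 mg/kg) and 0.52 in the control mouse 619. That of the sensors was 0.41, 0.30 and -0.03 in mice 605, 606 and 626. Both mice 605 and 606 lay above the other 24 for 6 of 45 members (Ifi44, Ifi47, Irf9, Parp14, Stat2 and Zbp1), against 2.43% of all genes, and below them for 0 (1.75%). At the other end, mouse 603 (0 mg/kg) was lowest for 9 of 45 (2.52% of all genes), mouse 624 (0.5 mg/kg) for 7 (4.32%) and mouse 613 (50 mg/kg) for 5 (2.61%). These mice were singled out after their values were seen, so the counts are descriptions.

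**Figure D5:**
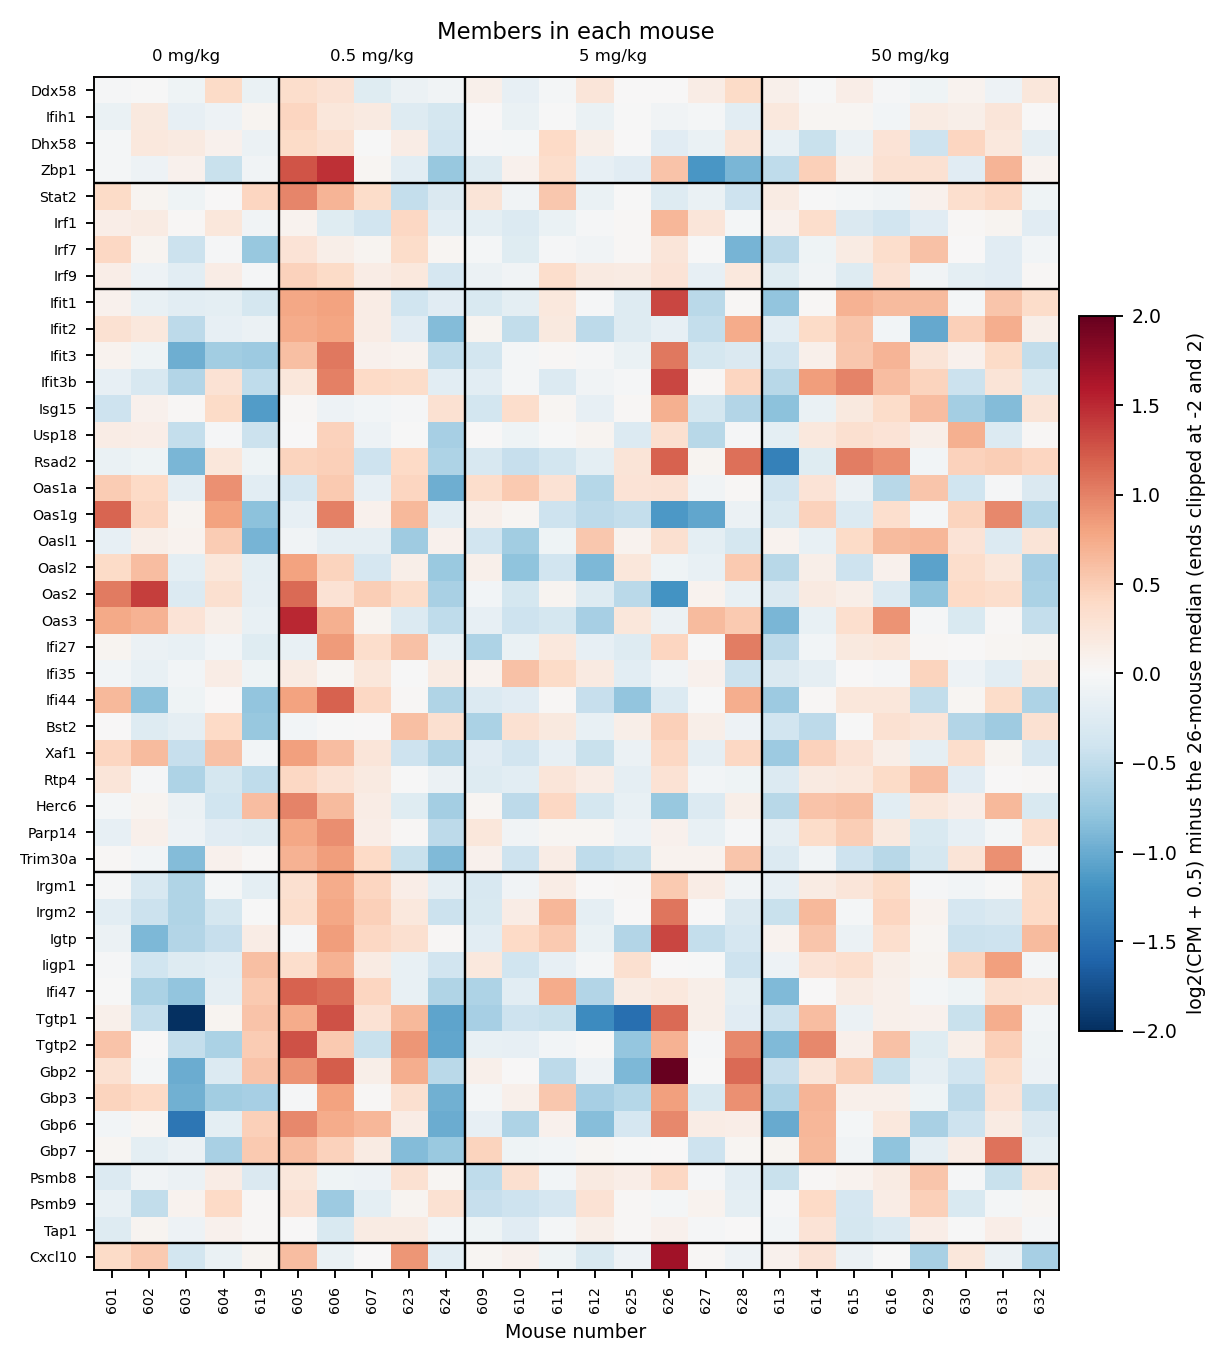
Each of the 45 members (rows, by role) in each of the 26 mice (columns, by dose), as log2(CPM + 0.5) minus the gene's median over the mice, with colours ending at -2 and 2. Mice 605 and 606 are mostly above the median, and mouse 626 is high for the GTPases and Cxcl10 and low for Oas1g and Oas2.

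The spread between mice of a dose and run was wider over the members than over all genes, which is given as a description. The residual SD of log2 CPM after dose and run had a median of 0.478 over the members and 0.338 over all 14415 genes, and 35 of 45 members lay above the median of genes of like expression (10 equal bins of mean log2 CPM). Without mice 605 and 606 the medians were 0.447 and 0.326. The least variable members were Tap1 (0.164), Ifih1 (0.174) and Ddx58 (0.187), and the most variable were Tgtp1 (0.948), Tgtp2 (0.736) and Gbp2 (0.733).

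Between the 2 higher doses, 28 of 45 members were higher at 50 than at 5 mg/kg (49.3% of all genes), with a median of 0.06. In edgeR 0 were called (0% of all genes) and 1, Oas1g, had an unadjusted p under 0.05 (4.85% of all genes), being higher (2.45%), with 0 lower (2.40%), while DESeq2 gave 1 and limma-voom 0 at that level and no calls among members. Irf9 had -0.21 ± 0.11, Iigp1 0.30 ± 0.17, Ifih1 0.17 ± 0.10 and Oasl1 0.33 ± 0.20 (log2 fold change ± SE), with smallest adjusted p = 0.962. Without mice 626 and 628, 37 of 44 members tested were higher at 50 than at 5 mg/kg (51.8% of all genes) with a median of 0.18. At 5 against 0 mg/kg 21 of 44 were then positive (50.2% of all genes) with a median of -0.01.

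Between the runs at the same dose, 16 of 45 members were higher in the run from 619 (54.0% of all genes), with a median of -0.08, or -0.01 without mice 605 and 606. By edgeR 0 members were called (0.0902% of all genes, 13 genes) and 1 had an unadjusted p under 0.05 (7.98% of all genes), 0 higher (4.16%) and 1 lower (3.83%), with 1 by DESeq2 and 2 by limma-voom, which called no member either. That member was Parp14, at -0.32 ± 0.11 (SE; edgeR adjusted p = 0.356), and at -0.21 without the pair. The next were Oas2 (-0.40 ± 0.23), Stat2 (-0.21 ± 0.13), Zbp1 (-0.36 ± 0.23) and Irf1 (0.16 ± 0.11). The difference between runs in the change from 5 to 50 mg/kg was tested on 4 mice per dose and run. Of 43 members tested 16 were positive (48.3% of 13418 genes), the median was -0.19, 0 were called in edgeR, DESeq2 or limma-voom (0% of all genes in edgeR), and 4, 5 and 2 in these tools had an unadjusted p under 0.05 (4.89% of all genes in edgeR). In edgeR 2 were higher (2.21%) and 2 lower (2.68%), namely Ifi35 (0.65 ± 0.23), Ifit3b (-1.51 ± 0.58), Stat2 (0.52 ± 0.23) and Rsad2, the antiviral enzyme viperin (-1.19 ± 0.56), and Gbp6 followed at -1.13 ± 0.54, with edgeR adjusted p = 0.982 for each. Without mice 626 and 628 the median over members was 0.02, with 25 of 43 positive (52.2% of all genes).

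Other genes of the pathway were read from a list of 75, of which all were in the table and 61 passed the filter. None of the 9 interferon ligand genes passed. Over all 26 libraries Ifng had 10 reads, Ifnb1 and Ifna4 had 1 read each, and the other 6 had 0. Of the 61, 43 were positive at 0.5 against 0 mg/kg (median 0.11), 38 at 5 (0.08) and 37 at 50 mg/kg (0.10), against 50.8%, 51.9% and 51.1% of all genes, and 0 were called. With an unadjusted p under 0.05 there were 5 higher and 0 lower at 0.5 mg/kg, 2 higher and 1 lower at 5 mg/kg, and 1 in each direction at 50 mg/kg. The shares in the list, 8.20%, 4.92% and 3.28%, were near or below those of all genes (6.99%, 6.18% and 5.11%). The 5 at 0.5 mg/kg included the receptor kinase Jak2 (0.46 ± 0.15; edgeR adjusted p = 0.492), the MHC class I light chain B2m (0.57 ± 0.19; 0.499), its transactivator Nlrc5 (0.50 ± 0.21; 0.624) and the signalling inhibitor Socs3 (1.10 ± 0.47; 0.655). Of the receptors, 3 of 5 were positive at 0.5 mg/kg, 5 of 5 at 5 mg/kg and 2 of 5 at 50 mg/kg, and the largest there was Ifngr2 (0.37 ± 0.18). Mouse 626 was highest of 26 for 10 of the 61 (4.74% of all genes), among them Cxcl9 and Gbp5. Mouse 605 was highest for 11 (6.59%) and mouse 606 for 8 (7.15%), and these mice were singled out after their values were seen. Without mice 605 and 606, 30 of 62 tested were positive at 0.5 mg/kg (46.3% of all genes; median -0.02). In that fit 4 higher and 8 lower had an unadjusted p under 0.05, together a larger share than the 11.0% of all genes.

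Over the list as a whole, acute phase genes were high in the same mice 605, 606 and 626. Saa2 was at 1647 and 2872 CPM and Lcn2, an iron-binding protein, at 32.8 and 57.8 CPM in mice 605 and 606, while in the other 24 mice they reached 289.7 and 11.2 CPM. In mouse 626 Lcn2 was at 9.03 CPM, but Saa1 at 74.2 CPM and Saa2 at 24.2 CPM lay within the control ranges. Those ranges were 14.5 to 282 CPM for Saa1 and 4.53 to 121 CPM for Saa2. Over 26 acute phase genes the median deviation was 1.09, 1.37 and 0.83 in mice 605, 606 and 626, and mice 632 (0.74) and 629 (0.68) at 50 mg/kg were next, where the members' summary was -0.03 and 0.02. Neutrophil markers summed to 33.2 CPM in mouse 605 and 12.5 CPM in mouse 606, against 0.397 to 18.1 CPM in the others. S100a9 (18.6 and 7.28 CPM) and S100a8 (12.2 and 3.77 CPM) made up most of the sums in mice 605 and 606. Ly6g and Mpo were at 0 in both, as they were in 23 and 25 of all 26 mice. Kupffer cell markers, all 11 detected in every mouse, summed to 354 and 323 CPM in that pair and ranged from 156 to 374 CPM over all mice. Hepatocyte markers summed to 44973 CPM in mouse 605, the lowest of the study. They summed to 124306 CPM in mouse 606 and to 131304 CPM in mouse 626, the highest. Stellate cell and fibroblast markers summed to 320, 336 and 217 CPM in mice 605, 606 and 626 (131 to 462 CPM over all). The 11 T and NK cell markers summed to 6.48, 5.79 and 6.06 CPM in mice 605, 606 and 626 (2.25 to 20.5 CPM over all, highest in mouse 628), and 6 dendritic cell markers to 10.4, 10.1 and 8.29 CPM (3.86 to 10.9 CPM). At the low end of the members' summary, Kupffer cell markers summed to 156 and 187 CPM in mice 613 and 624, the 2 lowest of the study. In mouse 603, next lowest in the members' summary, they summed to 237 CPM, more than in mice 609 (211 CPM) and 612 (216 CPM). The part of inflammation and of cell makeup in the members' levels was not tested.

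By promoter, the 22 members with an ISRE core had a median log2 fold change of 0.32 at 0.5 against 0 mg/kg with 20 positive, and the 14 with a window but no match had 0.18 with 9 positive. These medians were 0.14 and 0.01 at 5 mg/kg, and 0.16 and 0.10 at 50 mg/kg. The medians of the 11 members with a GAS core and the 25 without were 0.28 and 0.22 for the lowest dose, 0.08 and 0.09 for the middle dose and 0.17 and 0.12 for the highest, with no order that held across the doses. The 0.5 mg/kg medians include mice 605 and 606. Of the 9 GTPases with a window, 8 held the ISRE core, and the GTPases had the highest median of any role at each dose (0.60, 0.16 and 0.25). ISRE core and role were therefore not separated here.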

How the data were processed

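The deposited values are whole-number counts of reads assigned to each gene, not normalized by the authors. The submitters' processing notes name bcl2fastq, featureCounts and mm10. The aligner, annotation and strand setting are not given in the sources used here. Counts in the 26 single-mouse files matched the combined table. Mice were grouped by labelled dose, and each library is 1 mouse. No pair of libraries within a dose agreed within sampling noise.

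Counts were filtered with filterByExpr, scaled by TMM and tested with edgeR 4.0.16 (R 4.3.3; quasi-likelihood, robust, Benjamini-Hochberg, threshold 0.05) over 26 mice with terms for dose and run. For the interaction only the 16 mice given 5 or 50 mg/kg were fitted. Log2 CPM used a prior count of 2, and SEs and 95% intervals came from the fit. The median SE of a member was 0.30 at 0.5 and 0.28 at 50 against 0 mg/kg. The test was checked on simulated counts, with changes set in genes above the median level. Of 1.5-fold changes it recovered 44%, 28% and 40% at 0.5, 5 and 50 against 0 mg/kg. For 2-fold changes the shares were 80%, 86% and 88%, and false calls numbered 16, 7 and 16. Many members lie below the median level, and their median residual SD was 0.478 against 0.338 over all genes. These shares therefore do not give the power of the test for the members. Alternatives were DESeq2 1.42.0, limma-voom (limma 3.58.1), other scaling and filtering, no run term, each run alone, only the 2 doses compared, and leaving out mice.

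The members, lists and tests were chosen with earlier results of these data known, so no list test was made. Members named with fold changes are the 5 of smallest p in each comparison, and those of highest mean CPM in each role are given by level. Outside this rule are the fold changes of Tap1 and the ranges over the oligoadenylate synthetases. Ifi47, Zbp1 at 0.5 mg/kg, Rtp4 at 0.5 mg/kg and the mice described singly were added after their values were seen. Coordinates are GENCODE M21 on mm10 and RefSeq on GRCm38.p6.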

Additional observations from a re-analysis of the deposited data

Results flagged for a closer look

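In groups of 4 to 10 mice the highest and lowest mouse was compared with its neighbour by Dixon's criterion, for the named members and the per-mouse summaries at each of 4 doses. Of 96 groups tested 10 held an outlying mouse. The criterion's rate of 1 in 20 holds for independent groups of members chosen without sight of their values. These groups reuse the same mice, and most members were named for a small p in these data, so the count is a description.

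Mouse 626 (5 mg/kg replicate 6) was the outlying mouse in 7 of the 10. It stood above the other 7 mice of its dose for Cxcl10 (8.29 CPM, next 2.43), Gbp6 (8.66 CPM, next 4.74), Ifit3 (25.0 CPM, next 12.0), Ifit3b (6.06 CPM, next 3.01), Igtp (73.0 CPM, next 41.4) and Irf1 (54.5 CPM, next 40.6). Its summary over all members was 0.32, with the next mouse at 0.03. These values come from 1 library and are not independent of each other.

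Iigp1 stood at 722 CPM in 0 mg/kg replicate 5 (mouse 619), with the next control at 465 CPM. Irf9 stood at 42.5 CPM in 50 mg/kg replicate 4 (mouse 616), with the next at 35.4 CPM. The summary over members was -0.38 in 50 mg/kg replicate 1 (mouse 613), with the next lowest mouse at -0.03.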

How the results depend on the processing

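No member was called under any of the 10 alternatives, 51 fits over comparisons in all, nor with any 1 mouse left out. The number of genes called over the whole table was 7 at 0.5 against 0 mg/kg, 4 at 5 against 0, 3 at 50 against 0 and 108 between runs with DESeq2, and 1 between runs with limma-voom. At 0.5 mg/kg it was 33 in the run from 601 alone. At 50 against 0 mg/kg it was 0 without the run term, 4 in the run from 601 alone and 0 in the other run alone. Leaving out 1 mouse gave 0 to 3 at 5 against 0 mg/kg (3 without 0 mg/kg replicate 4), 0 to 1 at 50 against 0 (0 without 0 mg/kg replicate 5), 2 to 60 between runs and 0 to 2 for the interaction (2 without 50 mg/kg replicate 1).

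The median log2 fold change of the members at 0.5 against 0 mg/kg was -0.037 without mice 605 and 606, and 0.15 to 0.33 with 1 mouse left out. In the run from 619 alone, with 1 control, Irgm2 turned to -0.046 at 0.5 against 0 mg/kg, Oas1g to 0.38 at 5 against 0 and Oas2 to 0.12 at 50 against 0. The cause was not tested. With 1 mouse left out the median at 50 against 0 mg/kg was 0.06 to 0.25. No paired analysis was possible because mouse numbers are unique to each mouse. Low counts limit Oas3, Oas1g and Oas1a most, with 163, 253 and 344 reads over all mice.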
